A study of Mus musculus with 17 samples.

Results

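The 10 enzymes described here catalyse steps of glycolysis: the hexokinases Hk1, Hk2 and Hk3, the phosphofructokinase subunits Pfkl and Pfkp, aldolase A (Aldoa), phosphoglycerate mutase 1 (Pgam1), pyruvate kinase M (Pkm) and the lactate dehydrogenase subunits Ldha and Ldhb. They were chosen by name, with earlier results of these data known. An enzyme was measured through probe sets that the platform annotation gives to it alone. Of the 10 enzymes, 9 had such a probe set, and all 9 were among the 11629 genes tested, of 17097 genes with a probe set. Pgam1 was left out because its only annotated probe set also names a pseudogene. Where an enzyme had several probe sets, the one with the highest mean over all arrays was used.

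The study holds 17 Affymetrix mouse arrays of 5 groups, all from wildtype C57/Bl6 mice. The leukemia samples came from spleens of irradiated recipients (4.5 to 6 Gy, 4 to 8 weeks old) that had been given cells of CD45.2 donors transformed with Myc and Bcl2. The labels describe them as cells sorted for the myeloid markers CD11b and Gr1 and against CD3, CD4 and CD8. The transformed cells had been thymic DN2 cells, an early T-cell progenitor (5 arrays), LSK cells, a stem-cell-enriched marrow population negative for lineage markers and positive for Sca1 and c-kit (3 arrays), or granulocyte-macrophage progenitors, GMP (5 arrays). Healthy thymic DN2 cells (2 arrays) and healthy bone marrow GMP (2 arrays) stand beside the leukemias. The sources used here name neither the age of the healthy donors nor the Myc gene or the vector. No label says that replicates came from separate mice, so the p-values measure only the spread between these samples, which may be technical. Values are log2 RMA signals, on which 1 unit is a factor of 2 in signal, and the median of all values was 3.83. Signals near that median were taken as background, since no detection calls were used here, and differences against them are compressed.

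Hexokinases trap glucose in the cell by phosphorylating it. Hk1 is broadly expressed, Hk2 is an inducible form raised in many tumours, and Hk3 is best known from myeloid cells; Hk1 and Hk2 bind mitochondria. Phosphofructokinase commits the sugar to glycolysis as a tetramer of liver (Pfkl), platelet (Pfkp) or muscle (Pfkm) subunits. Aldolase splits the product, and pyruvate kinase makes pyruvate in the last step. Lactate dehydrogenase tetramers rich in the Ldha subunit favour making lactate from pyruvate, and those rich in Ldhb favour the reverse. Myc and the hypoxia factor Hif1a are known activators of several of these genes.

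The RNA signals of some arrays were at odds with their labels, and the groups are therefore called by label throughout. A sort reads surface protein and the arrays read RNA, so these signals do not show that a sort failed. Cd3e, which encodes a part of the CD3 selected against, lay at 7.79 to 9.06 on the DN2-labelled leukemia arrays. It lay at 5.00 to 5.34 on the LSK-labelled and 5.05 to 5.24 on the GMP-labelled leukemia arrays. Healthy DN2 cells too had T-cell RNA, with a mean of 7.61 to 7.75 over 9 T-cell genes. Itgam, which encodes the CD11b used in the sort, was at 7.17 and 7.38 on DN2-labelled arrays 1 and 3. On arrays 2, 4 and 5 it was near background, at 3.24 to 3.47, although the labels state a sort for CD11b protein. Mycn was at 12.82 on LSK-labelled array 1 but at 4.91 and 4.22 on arrays 2 and 3, where healthy cells lay between 3.96 and 4.58. Bcl2 likewise was at 11.30 on LSK-labelled array 1 and at 6.75 and 5.27 on arrays 2 and 3, against 5.89 to 6.99 in healthy cells. Results that rest on these groups were computed with and without LSK-labelled arrays 2 and 3, DN2-labelled arrays 1 and 3, and DN2-labelled arrays 2, 4 and 5. The Y-linked gene Eif2s3y was at 8.93 to 9.90 on all 3 LSK-labelled arrays, at 10.05 on DN2-labelled array 2 and at 9.90 on GMP-labelled array 2, and at 2.69 to 3.03 on the other 12 arrays, all healthy ones among them. The sex of the mice and the LSK label therefore largely coincide. With Eif2s3y as a covariate 1 enzyme call was lost, that of Hk1 in the GMP-labelled leukemia against healthy GMP (-0.90, adjusted p = 0.0598), and none was gained.

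The start regions of 3 members are shown because they hold letters known to be read by Myc, by the hypoxia factor or by PU.1, a myeloid factor. In the RefSeq windows from 250 bases before to 50 bases after each gene start (GRCm38.p6, all 10 members matched), 3 strings were searched on both strands. These were CACGTG, the E-box read by Myc with Max, ACGTG, the core of the hypoxia response element, which CACGTG contains, and GAGGAA, letters read by PU.1. Capitals mark the match.
Ldha, chr7:46845632-46845691, plus strand: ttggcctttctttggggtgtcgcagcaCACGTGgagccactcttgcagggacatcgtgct
Ldha, chr7:46845729-46845788, plus strand: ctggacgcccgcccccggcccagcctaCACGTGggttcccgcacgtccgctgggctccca
Hk2, chr6:82774645-82774704, minus strand: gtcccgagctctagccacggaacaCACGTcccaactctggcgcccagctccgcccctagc
Hk2, chr6:82774474-82774533, minus strand: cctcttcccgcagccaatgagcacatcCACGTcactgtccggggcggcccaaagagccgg
Hk3, chr13:55021563-55021622, minus strand: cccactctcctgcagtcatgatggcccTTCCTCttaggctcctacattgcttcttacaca
Ldha was the only member with CACGTG in a window, and it held the string 2 times, while 7.1% of all 32817 windows of that length held it. The ACGTG core, read here on the opposite strand as CACGT, stood at 2 places in the Hk2 window, in windows of Hk1, Hk3, Aldoa, Pgam1, Pkm and Ldha too, and in 19.6% of all windows. GAGGAA, opposite strand TTCCTC, stood in the Hk3 window, in windows of Hk1, Aldoa and Pgam1 too, and in 28.3% of all windows. A match is a description of these letters and says nothing of binding in these samples.

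Hk3 had the largest difference of the 9 enzymes between the DN2-labelled and GMP-labelled leukemias, and likewise between the healthy cells. Hk3 was at 3.64, 3.34, 4.10, 3.76 and 3.55 in the DN2-labelled leukemia, at 6.63, 8.87 and 9.83 in the LSK-labelled leukemia and at 9.05, 8.65, 9.28, 8.72 and 9.31 in the GMP-labelled leukemia. Healthy DN2 cells had 4.33 and 3.71 and healthy GMP had 9.47 and 9.65. The DN2 groups thus stayed near background, and no DN2 array reached any other array. Hk3 was 40.2-fold lower in the DN2-labelled leukemia than in the GMP-labelled one (log2 difference -5.33 ± 0.42 SE, limma adjusted p = 1.26e-07) and lower by a log2 difference of -4.76 ± 0.49 than in the LSK-labelled leukemia (adjusted p = 3.02e-06). The healthy cells showed a difference of -5.54 ± 0.67 between DN2 and GMP (adjusted p = 5.32e-05). Neither leukemia was called against its healthy cells, and those differences were smaller than their SE. The 3 LSK-labelled arrays were not alike: array 1, which had the high Mycn and Bcl2 signal, lay below all GMP-labelled arrays. With array 1 alone the LSK-labelled minus GMP-labelled difference was -2.38, against -0.56 ± 0.49 with all 3 (adjusted p = 0.436). A single array holds no spread of its group, so for LSK-labelled array 1 alone no SE or p is given here or below.

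**Figure D1:**
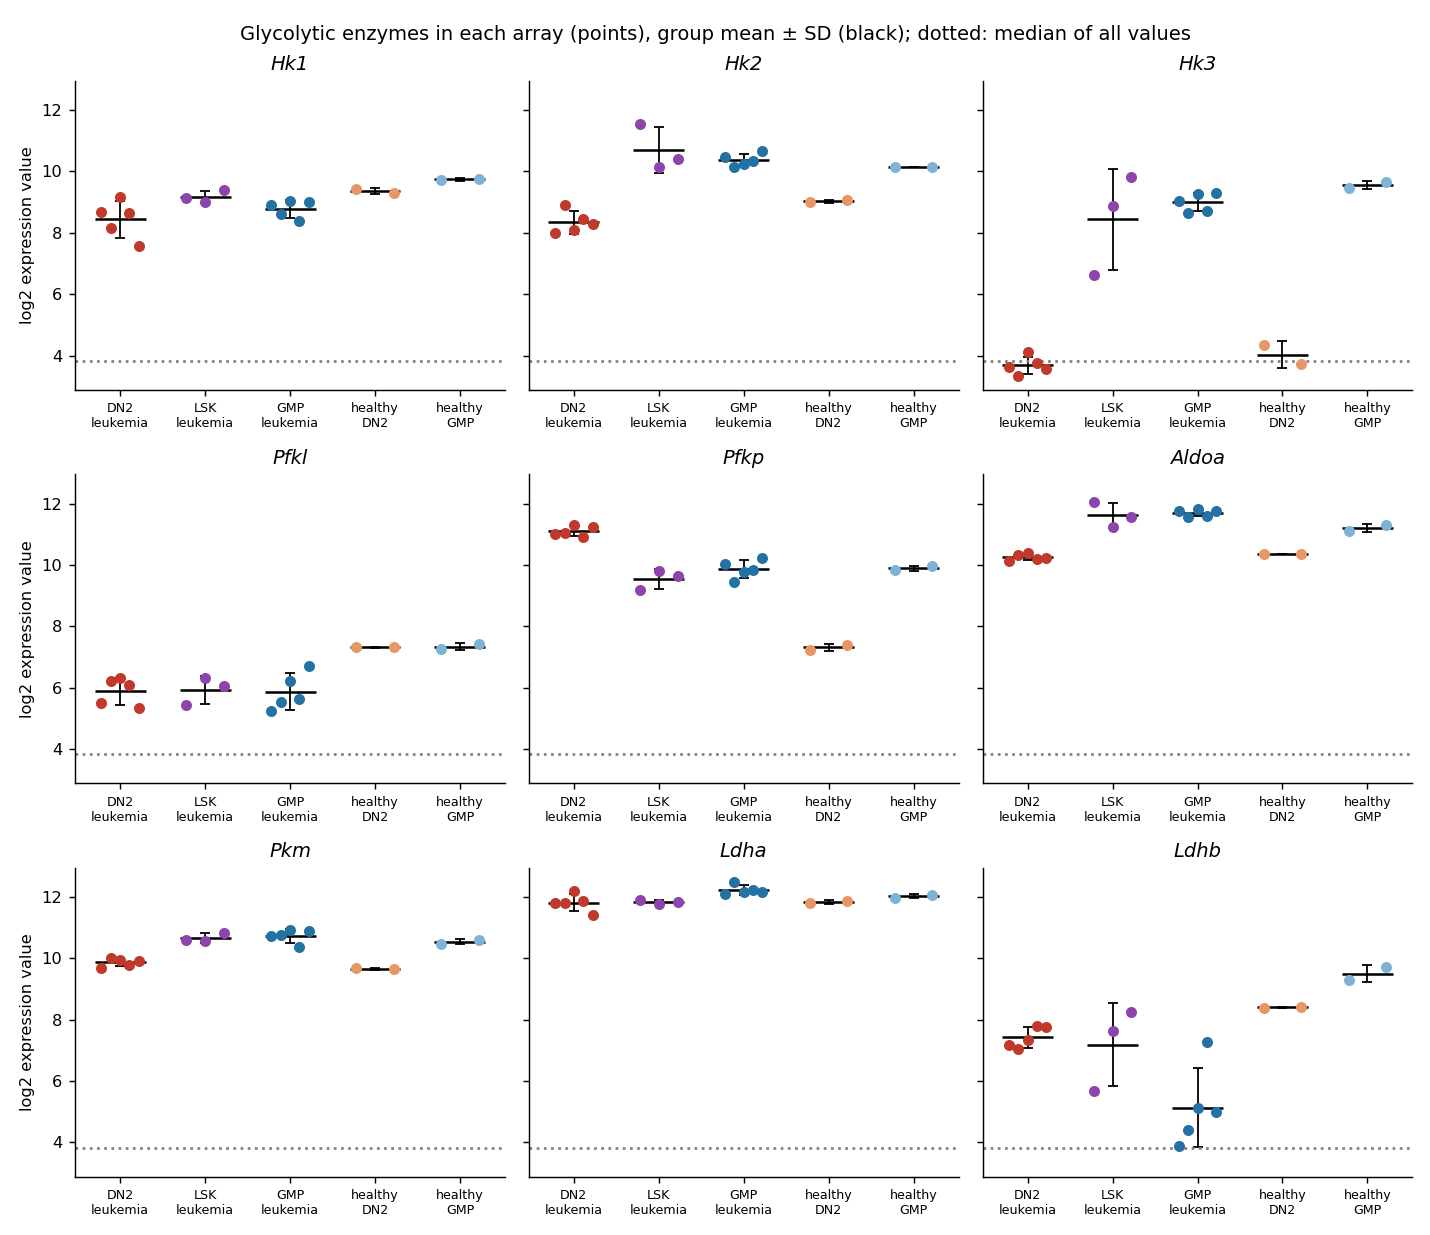
Log2 RMA signal (vertical axes) of the 9 measured enzymes on each of the 17 arrays, 1 point per array, by group. Black lines are group means ± SD and the dotted line is the median of all values, 3.83. Hk3 is near the background level in both DN2 groups, Pfkp is highest in the DN2-labelled leukemia and Ldhb is lowest in the GMP-labelled leukemia.

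Hk2, the inducible mitochondrial form, was also lower in the DN2-labelled leukemia. Its signal was 7.99, 8.91, 8.08, 8.44 and 8.28 there, 11.55, 10.15 and 10.40 in the LSK-labelled leukemia and 10.46, 10.16, 10.23, 10.33 and 10.67 in the GMP-labelled leukemia. Healthy DN2 cells averaged 9.03 ± 0.05 (SD, n = 2) and both healthy GMP arrays had 10.16. The DN2-labelled arrays lay below all others, without overlap. Hk2 was 4.09-fold lower than in the GMP-labelled leukemia (-2.03 ± 0.24, adjusted p = 6.94e-06), and the difference from the LSK-labelled leukemia was -2.36 ± 0.27 (adjusted p = 9.27e-06). Against healthy DN2 cells the difference of -0.70 ± 0.31 did not pass (adjusted p = 0.13), nor did that of healthy DN2 minus healthy GMP cells, -1.13 ± 0.37 (adjusted p = 0.0691). LSK-labelled array 1 had the highest Hk2 signal of all arrays. With it alone the LSK-labelled minus GMP-labelled difference was 1.18, against 0.33 ± 0.27 with all 3 arrays (adjusted p = 0.408).

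Hk1, the broadly expressed form, varied least of the hexokinases between groups. Its signal averaged 8.45 ± 0.60 in the DN2-labelled (SD, n = 5), 9.18 ± 0.20 in the LSK-labelled (n = 3) and 8.79 ± 0.29 in the GMP-labelled leukemia (n = 5), against 9.36 ± 0.10 in healthy DN2 cells and 9.74 ± 0.04 in healthy GMP (n = 2 each). It was lower in the GMP-labelled leukemia than in healthy GMP (-0.95 ± 0.32, adjusted p = 0.0458), where the groups did not overlap. That call did not outlast the omission of any array of the comparison. Against healthy DN2 cells the DN2-labelled leukemia differed by -0.91 ± 0.32 (adjusted p = 0.0505), and without DN2-labelled arrays 1 and 3 by -1.23 ± 0.28 (adjusted p = 0.00716). Of 13 alternatives 7 left that difference uncalled. It was called with quantile normalization (adjusted p = 0.0442), median centring (0.0476), the filter at 1 above the median (0.0483), the mean of probe sets (0.0334) and array weights (0.000619). The interaction for Hk1 was smaller than its SE. Against the LSK-labelled leukemia the DN2-labelled leukemia differed by -0.73 ± 0.28 (adjusted p = 0.041), but that call was lost in 5 of 8 fits that left out 1 array. It was also lost without a filter on low values (adjusted p = 0.0534), with these groups alone (adjusted p = 0.113) and with the mean of its probe sets (-0.38, adjusted p = 0.14). The second Hk1 probe set differed there by -0.02, and against LSK-labelled array 1 alone the set used differed by -0.67. The DN2-labelled minus GMP-labelled difference of -0.34 ± 0.24 was not called (adjusted p = 0.292), and without DN2-labelled arrays 1 and 3 it was -0.66 ± 0.23 (adjusted p = 0.0379). With only arrays 1 and 3, whose Itgam was high, the differences were 0.14 ± 0.21 from the GMP-labelled leukemia (adjusted p = 0.717), -0.25 ± 0.23 from the LSK-labelled leukemia (adjusted p = 0.437) and -0.43 ± 0.25 from healthy DN2 cells (adjusted p = 0.316).

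Of the phosphofructokinase subunits, Pfkp was highest in the DN2-labelled leukemia. Its signal there was 11.02, 11.04, 11.31, 10.90 and 11.24, against 7.24 and 7.39 in healthy DN2 cells, which is 13.8-fold higher (3.79 ± 0.21, adjusted p = 4.42e-09). The LSK-labelled leukemia had 9.17, 9.79 and 9.65, and the GMP-labelled leukemia 10.04, 9.44, 9.78, 9.82 and 10.22, close to the 9.84 and 9.95 of healthy GMP. All DN2-labelled arrays lay above all other arrays, and the healthy DN2 arrays below all others. In the GMP-labelled leukemia the difference from healthy GMP was smaller than its SE. The change from healthy cells was 3.83 ± 0.30 larger for DN2 than for GMP (the interaction of origin and leukemia, adjusted p = 5.16e-07). Pfkp was 2.37-fold higher in the DN2-labelled leukemia than in the GMP-labelled one (1.24 ± 0.16, adjusted p = 1.79e-05), higher by 1.56 ± 0.18 than in the LSK-labelled leukemia (adjusted p = 1.04e-05), and lower in healthy DN2 than in healthy GMP cells (-2.58 ± 0.25, adjusted p = 5.27e-06). The order between DN2 and GMP cells was thus opposite in leukemia and in healthy cells. A second, dimmer Pfkp probe set had differences of the same sign in the comparisons that called Pfkp. They were 1.12 for the DN2-labelled leukemia against healthy DN2 cells and 0.84 for the interaction. Between healthy DN2 and healthy GMP cells it differed by only -0.19, at means of 3.3 and 3.49, below the median of all values. The lower signal of healthy DN2 cells thus rests on the probe set used.

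Pfkl moved the other way against healthy cells. It averaged 5.88 ± 0.44 in the DN2-labelled, 5.92 ± 0.46 in the LSK-labelled and 5.87 ± 0.60 in the GMP-labelled leukemia, against 7.32 ± 0.01 in healthy DN2 cells and 7.34 ± 0.11 in healthy GMP. The highest leukemia array, at 6.72, lay below the lowest healthy array, at 7.26. Pfkl was lower in the DN2-labelled leukemia than in healthy DN2 cells (-1.43 ± 0.37, adjusted p = 0.0112) and lower in the GMP-labelled leukemia than in healthy GMP (-1.48 ± 0.37, adjusted p = 0.0117). The differences among the 3 leukemia groups, and between the healthy groups, were smaller than their SE. A second Pfkl probe set moved the same way, by -1.44 and -1.16 against healthy DN2 and GMP cells, but the third moved by 0.64 and 0.18, so the direction depends on the probe set. Over all arrays the set used averaged 6.23, the second 5.33 and the third 5.99, and the third was the brightest in the DN2-labelled leukemia (6.18) and the LSK-labelled leukemia (6.88). The call against healthy DN2 cells was lost with DN2-labelled arrays 1 and 3 only (-1.42 ± 0.46, adjusted p = 0.0581). Both calls were lost when either healthy array of the comparison was left out. Pfkm, the muscle subunit, which is outside the 10 enzymes, was lower too: its difference from healthy cells was -1.16 ± 0.22 for DN2 (adjusted p = 0.00148) and -1.62 ± 0.22 for GMP (adjusted p = 0.000142).

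Aldoa and Pkm were lower in the DN2 groups. Aldoa was at 10.14, 10.32, 10.38, 10.20 and 10.22 in the DN2-labelled leukemia, at 12.05, 11.24 and 11.55 in the LSK-labelled leukemia and at 11.77, 11.57, 11.82, 11.61 and 11.76 in the GMP-labelled leukemia. Both healthy DN2 arrays had 10.37, and healthy GMP had 11.11 and 11.30. All DN2 arrays, leukemic and healthy, lay below all other arrays. Aldoa was 2.74-fold lower in the DN2-labelled leukemia than in the GMP-labelled one (-1.46 ± 0.13, adjusted p = 6.13e-07), by -1.36 ± 0.15 against the LSK-labelled leukemia (adjusted p = 7.88e-06) and by -0.83 ± 0.21 in healthy DN2 against healthy GMP cells (adjusted p = 0.0186). The last call did not outlast the omission of any of its 4 arrays. Against healthy GMP the GMP-labelled leukemia differed by 0.50 ± 0.18 (adjusted p = 0.0571). That difference was called with quantile normalization (adjusted p = 0.042), a trended robust fit (adjusted p = 0.0429) and array weights (adjusted p = 0.000612), and stayed uncalled in 8 of 11 alternatives. The array's Aldoa probe sets are of a type that Affymetrix marks as able to cross-hybridise.

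Pkm, whose probe set is not assigned to the M1 or M2 splice form, was at 9.69, 10.02, 9.94, 9.78 and 9.93 in the DN2-labelled leukemia, against 10.60, 10.56 and 10.84 in the LSK-labelled and 10.72, 10.75, 10.91, 10.38 and 10.89 in the GMP-labelled leukemia. Healthy DN2 cells had 9.68 and 9.64, and healthy GMP had 10.48 and 10.61. The DN2 arrays again lay below all others. Pkm was 1.81-fold lower in the DN2-labelled leukemia than in the GMP-labelled one (-0.86 ± 0.12, adjusted p = 4.59e-05), by -0.79 ± 0.14 against the LSK-labelled leukemia (adjusted p = 0.000332) and by -0.89 ± 0.19 in healthy DN2 against healthy GMP cells (adjusted p = 0.00633). The healthy call was lost without healthy DN2 array 2 or healthy GMP array 2 (adjusted p up to 0.0717). No leukemia was called against its healthy cells, where the differences were 0.21 ± 0.16 for DN2 (adjusted p = 0.389) and 0.19 ± 0.16 for GMP (adjusted p = 0.439).

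The lactate dehydrogenase subunits did not move together. Ldhb was at 7.19, 7.05, 7.33, 7.79 and 7.76 in the DN2-labelled leukemia, at 5.68, 7.63 and 8.26 in the LSK-labelled leukemia and at 3.88, 4.42, 5.12, 7.26 and 4.99 in the GMP-labelled leukemia. Healthy DN2 cells had 8.39 and 8.41 and healthy GMP had 9.30 and 9.71. GMP-labelled array 4 was the only one of its group that overlapped the DN2-labelled arrays, and array 1 was at background. Ldhb was 20.7-fold lower in the GMP-labelled leukemia than in healthy GMP (-4.37 ± 0.73, adjusted p = 0.000751), and the second Ldhb probe set gave -3.79. The Ldhb probe set used is, like those of Aldoa, of a type marked as able to cross-hybridise. In the DN2-labelled leukemia the difference from healthy DN2 cells was -0.97 ± 0.73 and not called (adjusted p = 0.393). The interaction was 3.39 ± 1.03 (adjusted p = 0.0434), but it lost its call in 13 of 14 fits that left out 1 array.

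Between leukemias, Ldhb was 4.88-fold higher in the DN2-labelled one than in the GMP-labelled one (2.29 ± 0.55, adjusted p = 0.00394). It was higher in the LSK-labelled than in the GMP-labelled one by 2.06 ± 0.64 (adjusted p = 0.0266). This LSK-labelled against GMP-labelled call was lost in 4 of 8 fits that left out 1 array. It was also lost with these groups alone (adjusted p = 0.132) and with the mean of its probe sets (adjusted p = 0.0588). The second Ldhb probe set gave smaller differences, 1.65 and 1.22. With LSK-labelled array 1 alone the LSK-labelled minus GMP-labelled difference of the set used was 0.55. Ldha, the lactate-forming subunit and the member with both E-box strings, was bright and varied little. It averaged 11.82 ± 0.29 in the DN2-labelled, 11.84 ± 0.07 in the LSK-labelled and 12.23 ± 0.15 in the GMP-labelled leukemia, against 11.83 ± 0.06 in healthy DN2 cells and 12.03 ± 0.06 in healthy GMP. It was 1.33-fold lower in the DN2-labelled leukemia than in the GMP-labelled one (-0.41 ± 0.13, adjusted p = 0.0252). That call was lost without DN2-labelled array 5 or GMP-labelled array 2, and with these groups alone in the fit (adjusted p = 0.0607). With DN2-labelled arrays 1 and 3 only the call was lost too (-0.23 ± 0.15, adjusted p = 0.342). No other comparison called Ldha. The LSK-labelled arrays 2 and 3, of low Mycn signal, had Ldha at 11.76 and 11.84, close to the 11.90 of array 1. A link between Ldha and the Mycn signal was not tested.

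Isoform choice was followed as the log2 difference between 2 forms within an array. Different probe sets do not share a scale, so only shifts of this balance between groups can be read. The balance of Hk3 to Hk1 was -4.77 ± 0.42 in the DN2-labelled, -0.74 ± 1.55 in the LSK-labelled and 0.22 ± 0.12 in the GMP-labelled leukemia, against -5.34 ± 0.35 in healthy DN2 cells and -0.18 ± 0.08 in healthy GMP (mean ± SD). It thus lay apart by -4.99 between DN2-labelled and GMP-labelled leukemia and by -5.16 between the healthy cells. Hk3 was at background in both DN2 groups, so these differences are compressed, and in DN2 cells the balance follows Hk1. The balance of Hk2 to Hk1 was -0.11 ± 0.82 in the DN2-labelled, 1.52 ± 0.79 in the LSK-labelled and 1.58 ± 0.28 in the GMP-labelled leukemia, against -0.32 ± 0.14 in healthy DN2 cells and 0.42 ± 0.05 in healthy GMP, a shift of 1.16 towards Hk2 in the GMP-labelled leukemia. With DN2-labelled arrays 1 and 3 only, the Hk2 to Hk1 shift was -2.47 against the GMP-labelled leukemia, where it was -1.69 with all 5, and -0.57 against healthy DN2 cells, where it was 0.22.

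With the probe sets used, the balance of Pfkp to Pfkl was higher in the DN2-labelled and GMP-labelled leukemias than in their healthy cells, but for GMP the sign depended on the Pfkl probe set. Pfkp to Pfkl was 5.22 ± 0.48 in the DN2-labelled, 3.61 ± 0.14 in the LSK-labelled and 3.99 ± 0.53 in the GMP-labelled leukemia, against -0.01 ± 0.12 in healthy DN2 cells and 2.55 ± 0.04 in healthy GMP. The shift was 5.22 for DN2 and 1.44 for GMP, and every leukemia array lay above every healthy one. In GMP the Pfkp difference was smaller than its SE, so that shift rests on Pfkl. With the second Pfkl probe set the shifts were 5.23 and 1.12, with the third 3.15 and -0.22, and with the mean of all probe sets of each gene 3.20 and 0.94. Ldhb to Ldha was -4.40 ± 0.52 in the DN2-labelled, -4.64 ± 1.39 in the LSK-labelled and -7.09 ± 1.31 in the GMP-labelled leukemia, against -3.43 ± 0.05 in healthy DN2 cells and -2.52 ± 0.23 in healthy GMP. It moved away from Ldhb by -0.96 for DN2 and by -4.57 for GMP, and the GMP-labelled range, -8.23 to -4.96, did not reach the healthy GMP arrays.

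**Figure D2:**
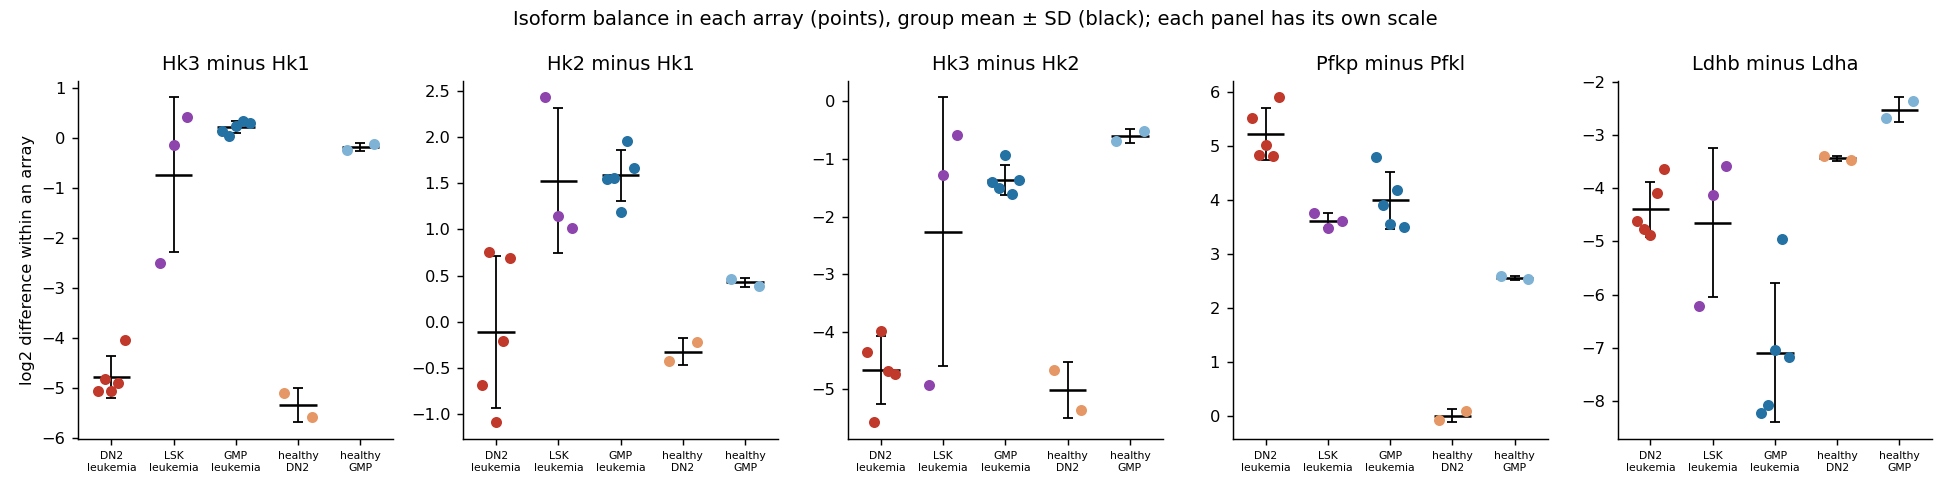
Within-array log2 difference between 2 forms of an enzyme (vertical axes) by group, 1 point per array, with the group mean ± SD in black. Each panel has its own scale. Hk3 to Hk1 separates the DN2 groups from the GMP groups, Pfkp to Pfkl is higher in the DN2-labelled leukemia than in healthy DN2 cells, and Ldhb to Ldha is lowest in the GMP-labelled leukemia.

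Counted over comparisons, which share arrays and are not independent, 7, 6 and 1 of the 9 enzymes were called between the DN2- and GMP-labelled, the DN2- and LSK-labelled, and the LSK- and GMP-labelled leukemias. The median absolute differences of the enzymes were 1.24, 0.79 and 0.33, beside 0.42, 0.59 and 0.40 over all genes. Against the GMP-labelled leukemia 2 of 9 were higher (Pfkp, Ldhb) and 5 lower (Hk2, Hk3, Aldoa, Pkm, Ldha) at an adjusted p under 0.05, while 39.8% of all genes tested were called, 21.0% higher and 18.8% lower. The median difference was -0.41 over the 9 enzymes and 0.03 over all genes. Against the LSK-labelled leukemia 1 was higher and 5 lower, with 47.4% of all genes called (28.3% higher, 19.1% lower) and medians of -0.73 and 0.11. Between the LSK-labelled and GMP-labelled leukemias only Ldhb was called, higher in the LSK-labelled one, with 26.7% of all genes called (10.3% higher, 16.5% lower). With LSK-labelled array 1 alone the differences from the GMP-labelled leukemia were 1.18 in Hk2, -2.38 in Hk3 and 0.55 in Ldhb. Against that array alone the DN2-labelled leukemia differed by -3.21 in Hk2, -2.95 in Hk3, 1.93 in Pfkp, -1.80 in Aldoa and -0.73 in Pkm. Without DN2-labelled arrays 1 and 3 the differences from the GMP-labelled leukemia were -1.83 in Hk2, -5.46 in Hk3, 1.20 in Pfkp, -1.46 in Aldoa, -0.82 in Pkm, -0.53 in Ldha and 2.40 in Ldhb, all called. With only arrays 1 and 3 they were -2.34 in Hk2, -5.14 in Hk3, 1.31 in Pfkp, -1.45 in Aldoa and -0.92 in Pkm, all called, while Ldha and Ldhb (2.13 ± 0.80, adjusted p = 0.0761) were not.

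Set against its own healthy cells, the DN2-labelled leukemia had 2 of 9 enzymes called and the GMP-labelled leukemia 3 of 9. In the DN2-labelled leukemia Pfkp was higher and Pfkl lower, where 23.2% of all genes were called (9.48% higher, 13.7% lower), and in the GMP-labelled leukemia Hk1, Pfkl and Ldhb were lower, where 21.2% were called (8.08% higher, 13.1% lower). Healthy DN2 cells were lower than healthy GMP in Hk3, Pfkp, Aldoa and Pkm, with 11.2% of all genes called (5.78% higher, 5.42% lower). The interaction called Pfkp and Ldhb, with 12.7% of all genes called (6.39% higher, 6.28% lower). Without DN2-labelled arrays 1 and 3 Pfkp differed from healthy DN2 cells by 3.75 and Pfkl by -1.44 (adjusted p = 0.0232), both called, and the Ldhb interaction was 3.50 ± 1.15 and not called (adjusted p = 0.0668). With only arrays 1 and 3 Pfkp differed from healthy DN2 cells by 3.85 and was called, and the Ldhb interaction was 3.23 ± 1.25 and not called (adjusted p = 0.146).

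**Figure D3:**
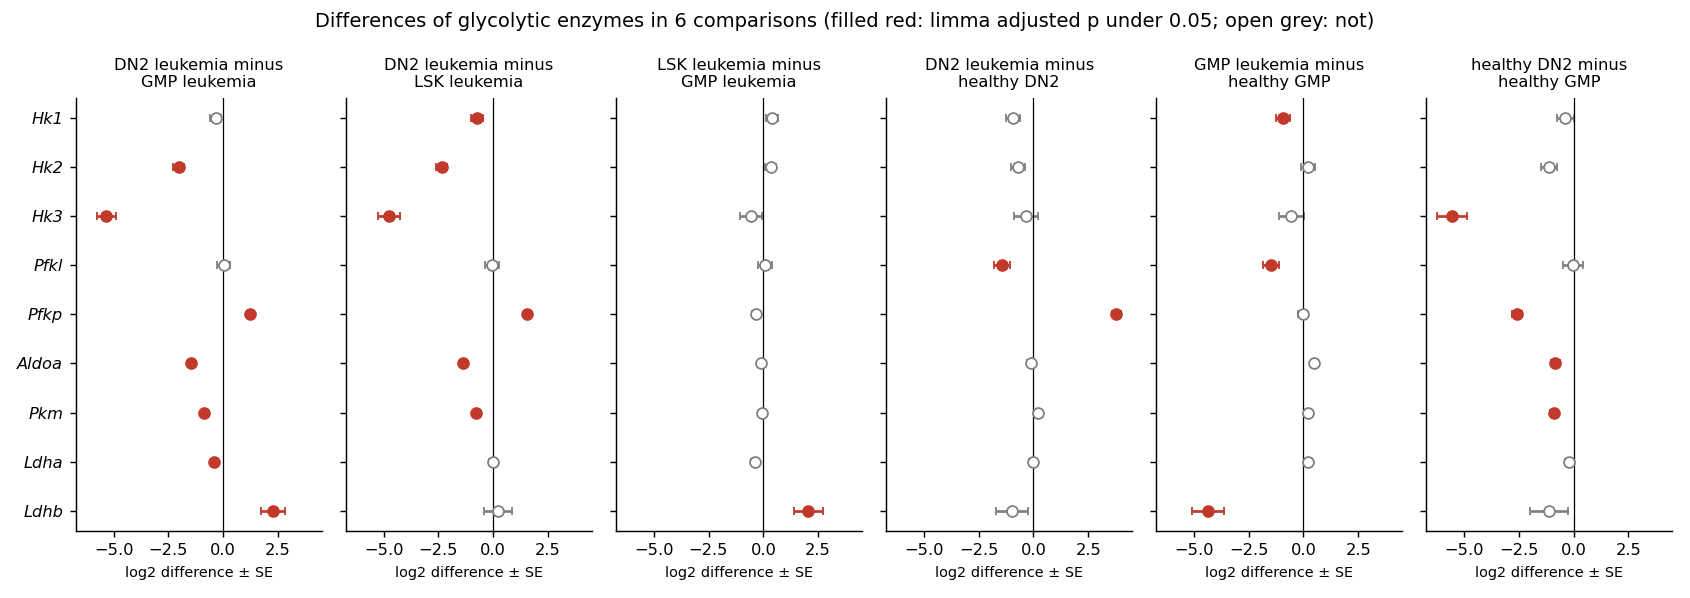
Log2 difference (horizontal axes, first-named minus second-named group) of the 9 enzymes in 6 comparisons, with limma standard errors as bars. Filled points mark an adjusted p under 0.05. Hk3 is -5.33 for the DN2-labelled against the GMP-labelled leukemia, and Pfkp is 3.79 for the DN2-labelled leukemia against healthy DN2 cells.

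Markers of cell types also differed between the groups. The mean signal of 12 neutrophil genes was 3.71 to 4.87 on the DN2-labelled, 10.29 to 12.61 on the LSK-labelled and 11.58 to 12.32 on the GMP-labelled leukemia arrays, against 4.22 to 4.39 in healthy DN2 cells and 8.61 to 8.72 in healthy GMP. All 12 were lower in the DN2-labelled leukemia than in the GMP-labelled one, beside 18.8% of all genes. In the GMP-labelled leukemia 8 of 12 were higher than in healthy GMP, where 21.2% of all genes were called. In that comparison Aldoa differed by 0.50 ± 0.18 (limma adjusted p = 0.0571), Pkm by 0.19 ± 0.16 (adjusted p = 0.439) and Hk3 by less than its SE. The 9 T-cell genes averaged 9.83 to 10.21 on the DN2-labelled arrays, 4.02 to 4.55 on the LSK-labelled and 4.02 to 4.54 on the GMP-labelled arrays, against 7.61 to 7.75 in healthy DN2 cells and 3.83 to 3.89 in healthy GMP. All 9 were higher in the DN2-labelled leukemia than in the GMP-labelled one, as were all 8 NK-cell genes, beside 21.0% of all genes. The NK-cell mean was 5.59 to 7.61 on the LSK-labelled and 3.57 to 4.33 on the GMP-labelled arrays. Of 8 NK-cell genes 6 were higher in the LSK-labelled leukemia, as were 2 of 4 tested B-cell genes, beside 10.3% of all genes. With LSK-labelled array 1 alone the median differences were smaller, 1.17 against 2.04 for the NK-cell and 0.88 against 1.74 for the B-cell genes. The mean over the B-cell genes was 5.01 or below on every array, that over the erythroid genes between 4.90 and 6.88, and that over the monocyte genes between 3.60 and 8.15 with the highest means in the LSK-labelled leukemia. In bulk samples fewer cells of a type and less RNA per cell cannot be told apart, and the part of these markers in the enzyme differences was not tested.

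Cell-cycle genes also differed. Their mean over 21 genes was 8.18, 7.22, 9.49, 8.30 and 6.75 on the DN2-labelled arrays, 9.17, 8.62 and 9.18 on the LSK-labelled and 8.76, 9.11, 9.42, 9.96 and 9.16 on the GMP-labelled arrays, against 10.26 on both healthy DN2 arrays and 10.32 to 10.38 in healthy GMP. In the DN2-labelled leukemia 20 of 21 were lower than in healthy DN2 cells, beside 13.7% of all genes. In the GMP-labelled leukemia 6 of 21 were lower than in healthy GMP, beside 13.1% of all genes. Between the DN2-labelled and GMP-labelled leukemias 14 of 21 were lower and 1 higher in the DN2-labelled one, beside 18.8% and 21.0% of all genes. With DN2-labelled arrays 1 and 3 only, 7 of 21 were lower than in healthy DN2 cells and 1 of 21 was lower than in the GMP-labelled leukemia. Hk1 was lowest, at 7.58 and 8.15, on the DN2-labelled arrays 5 and 2, which also had the lowest cell-cycle means. GMP-labelled array 4 had the highest cell-cycle mean of the leukemia arrays, 9.96, and at 8.37 the lowest Hk1 of its group. Hk1 correlated most highly over the 17 arrays with Pclaf (r = 0.922), Snx15 (r = 0.92) and Nusap1 (r = 0.918). Of these, Pclaf and Nusap1 are cell-cycle genes. The arrays fall into groups, so these correlations describe the groups as much as the genes. A link between Hk1 and the cell cycle was not tested.

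**Figure D4:**
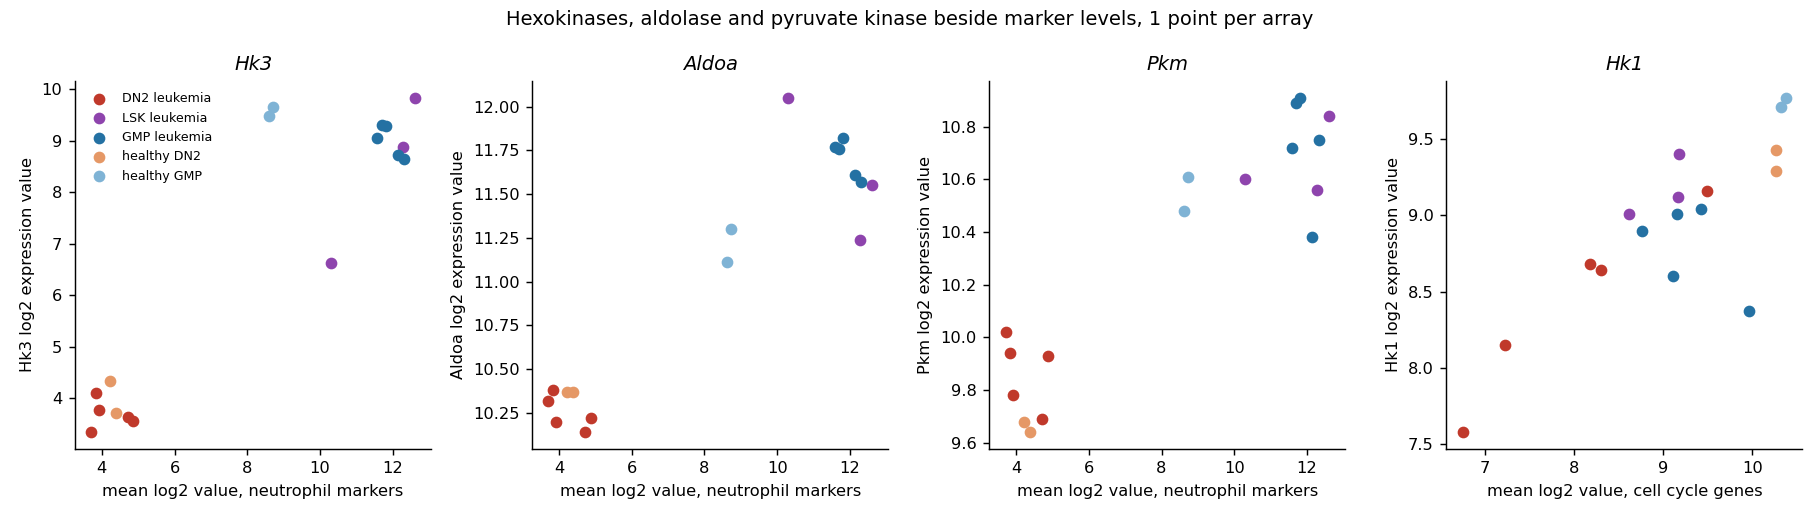
Log2 signal of Hk3, Aldoa, Pkm and Hk1 (vertical axes) against the mean log2 signal of the 12 neutrophil genes or, for Hk1, the 21 cell-cycle genes (horizontal axes), 1 point per array, coloured by group. The DN2 arrays lie at low neutrophil means and low Hk3, Aldoa and Pkm, and LSK-labelled array 1, at a neutrophil mean of 10.29, has the highest Aldoa and an Hk3 of 6.63.

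The other genes whose pattern was most like a member's over the 17 arrays were, for Hk3, Plod3 (r = 0.987), Lbp (0.985) and Cebpd (0.982). For Hk2 they were Slc35c2 (0.983), 2610507I01Rik (0.958) and Aldoa (0.949), and for Aldoa F5 (0.987), Abca13 (0.981) and Tecr (0.968). Pkm was most like Glrx, Rhou and Slpi (0.956, 0.956 and 0.955). Pfkp was most like Dennd2d (0.919), Ly9 (0.912) and Lrrk1 (0.893), and Ldhb most like Atp10a (0.955), Cnpy4 (0.925) and Cd99l2 (0.905). Pfkl and Ldha had no gene above r = 0.897 (Tbc1d5) and 0.885 (Ndufa8). Among the members, Aldoa and Pkm correlated at 0.93 and Hk3 and Pkm at 0.92.

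Outside the members, the DN2-labelled leukemia had lower signals than the GMP-labelled one for all 5 tested pentose phosphate enzymes, while the counts called in the other pathway lists, 1 to 5 genes a list, are to be read beside the 39.8% of all genes called there. Of 9 other glycolytic enzymes tested, 1 was higher and 3 lower than in the GMP-labelled leukemia: Pfkm was higher (1.45 ± 0.17, adjusted p = 7.10e-06), and Ldhc, a testis-type lactate dehydrogenase (-1.59 ± 0.42), Pgk1 (-0.82 ± 0.11) and Gapdh (-0.76 ± 0.10) were lower. Of 8 glucose and lactate transporters 1 was higher and 3 lower, among them the glucose transporters Slc2a6 (-2.42 ± 0.39) and Slc2a3 (-2.15 ± 0.24) and the lactate exporter Slc16a3 (-2.01 ± 0.20). The pentose phosphate enzymes had a median of -1.17, against 0.03 over all genes. Of these, transaldolase Taldo1 differed by -1.89 ± 0.17 (adjusted p = 5.30e-07) and 6-phosphogluconate dehydrogenase Pgd by -1.83 ± 0.17 (adjusted p = 6.77e-07). Of 5 genes that set fructose bisphosphate, 3 were lower: the kinase-phosphatases Pfkfb4 (-4.19 ± 0.56) and Pfkfb3 (-0.67 ± 0.15) and the gluconeogenic phosphatase Fbp1 (-3.16 ± 0.63). Of 10 genes of pyruvate entry into mitochondria 3 were higher and 2 lower, and of 5 serine-branch enzymes 1 was higher.

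Of 8 glucose and lactate transporters 2 were higher and 1 lower in the DN2-labelled leukemia than in healthy DN2 cells, and 3 higher and 1 lower in the GMP-labelled leukemia than in healthy GMP, where 23.2% and 21.2% of all genes were called. No serine-branch enzyme of 5 was called in either, and of 5 pentose phosphate enzymes 3 were lower for DN2 and none was called for GMP. Slc2a3 averaged 9.54 ± 0.49 in the DN2-labelled leukemia, against 8.36 ± 0.07 in healthy DN2 cells (1.19 ± 0.32, adjusted p = 0.0134), and 11.69 ± 0.27 in the GMP-labelled leukemia, against 7.79 ± 0.09 in healthy GMP (3.90 ± 0.32, adjusted p = 6.68e-07). The interaction was -2.71 ± 0.45 (adjusted p = 0.000882). The DN2 call was lost without DN2-labelled arrays 1 and 3 (0.86 ± 0.29, adjusted p = 0.0507). Slc2a1, the common glucose transporter, was not called in any comparison and averaged 8.80 ± 0.44, 9.21 ± 0.32 and 8.76 ± 0.21 in the DN2-, LSK- and GMP-labelled leukemias. Slc16a7, a monocarboxylate transporter, was at background in both leukemias (3.33 ± 0.24 for DN2-labelled and 3.16 ± 0.14 for GMP-labelled arrays), against 6.91 ± 0.05 in healthy DN2 and 7.07 ± 0.45 in healthy GMP cells, and the muscle enolase Eno3 was higher than in healthy cells in both, by 3.43 ± 0.62 for DN2 (adjusted p = 0.000892) and 2.01 ± 0.62 for GMP (adjusted p = 0.0316). The Myc signal differed from healthy cells by -4.40 ± 0.26 for DN2 and -4.46 ± 0.26 for GMP, and the Mycn signal by 7.51 ± 1.51 and 8.28 ± 1.51, at means of 11.87 and 12.55 in the leukemias, against 4.36 in healthy DN2 cells and 4.27 in healthy GMP.

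Of 8 transporters 2 were higher and 1 lower in the LSK-labelled leukemia than in the GMP-labelled one, where 26.7% of all genes were called. Slc16a7 averaged 6.43 ± 1.25, against 3.16 ± 0.14 in the GMP-labelled leukemia (3.27 ± 0.38, adjusted p = 4.51e-05), and with LSK-labelled array 1 alone the difference was 1.85. Slc2a6 averaged 8.29 ± 0.95, against 6.18 ± 0.79 (2.11 ± 0.45, adjusted p = 0.00359), and with array 1 alone the difference was 1.07 and not called. Slc16a1, another monocarboxylate transporter, was lower: it averaged 6.71 ± 1.34 in the LSK-labelled leukemia, against 9.70 ± 0.89 in the GMP-labelled leukemia (-2.98 ± 0.52, adjusted p = 0.000989), and Pdk1, which restrains pyruvate entry into mitochondria, differed by -1.97 ± 0.40 (adjusted p = 0.0026). Of 5 serine-branch enzymes 4 were lower, among them Phgdh, the entry enzyme (-2.91 ± 0.53). With LSK-labelled array 1 alone the median over the 5 serine-branch enzymes was -0.86, against -1.58 with all 3 arrays, and Phgdh differed by -0.86. Phgdh, Slc16a1 and Pdk1 were not called with that array alone. Tigar, a phosphatase that lowers fructose bisphosphate, was lower with all 3 arrays (-2.01 ± 0.45), and with array 1 alone the difference was -3.36. Hif1a lay between 9.56 and 10.82 on all arrays.

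**Figure D5:**
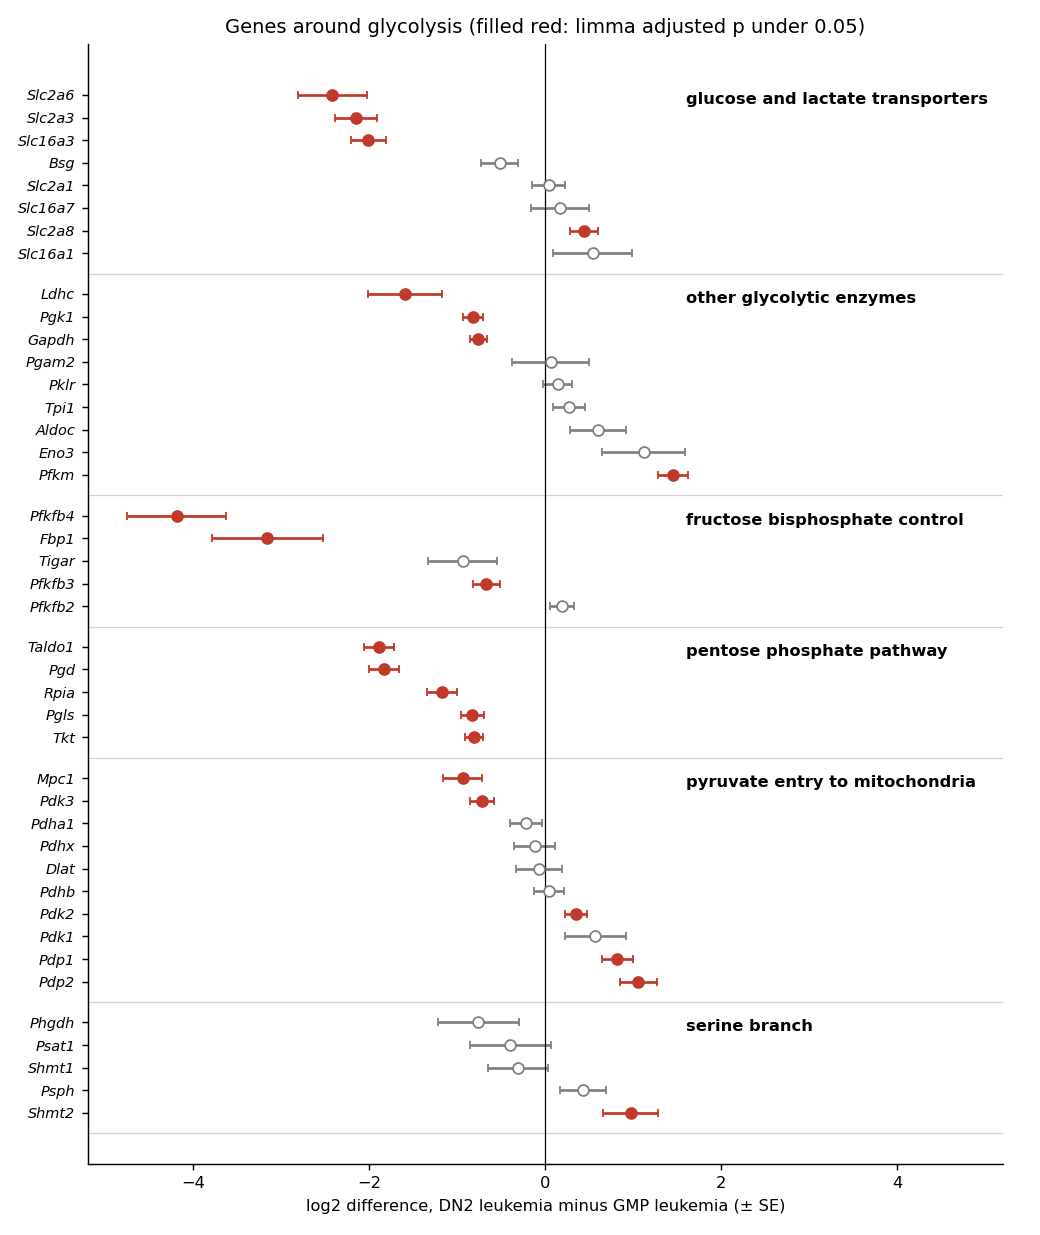
Log2 difference of the pathway genes for the DN2-labelled minus the GMP-labelled leukemia (horizontal axis), 1 point per gene tested, by list, with limma standard errors as bars. Filled points mark an adjusted p under 0.05. All 5 pentose phosphate enzymes lie to the left of 0, and Pfkfb4 is the lowest of the genes that set fructose bisphosphate.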

How the data were processed

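The deposited values are log2 RMA summaries per probe set, made by the authors with RMA and affy per the submitters' processing notes. The sources used here give no versions. Of 45141 probe sets, 104 controls were left out, and array medians ran from 3.80 to 3.86. Names came from the platform annotation (28898 probe sets with 1 symbol, 551 with several). Genes whose highest group mean exceeded 3.83 were tested. Differences were tested with limma 3.58.1 in R 4.3.3, with all 17 arrays in 1 fit and a mean per group, two-sided, with Benjamini-Hochberg adjustment over all 11629 genes per comparison, called at an adjusted p under 0.05. The fit was tested on simulated data. Members and lists were chosen with earlier results of these data known. Named were all members, per list and comparison at most the 3 called genes of largest difference, some genes fixed by name (among them Mycn, Myc, Hif1a, Slc2a1, Slc2a3, Slc16a3, Gapdh, Pgk1, Pfkm, Pfkfb3, Tigar), and per member the 3 genes of highest correlation. Genes of the sort and of the transformation were named to check labels. A member's difference that was not called and smaller than its SE is given no value. Replicate numbers recur between groups but name no shared animal, and same-numbered arrays did not deviate together (25 pairs, r from -0.3 to 0.25), so no pairing was used. The alternatives were quantile normalization, median centring, no filter, a filter at 1 above the median, the mean of a gene's probe sets or the one of largest variance, Eif2s3y as a covariate, a trended robust fit, array weights, the compared groups alone, a replicate block, leaving out each array, and leaving out LSK-labelled arrays 2 and 3 or DN2-labelled arrays 1 and 3, known from earlier results of these data. Leaving out DN2-labelled arrays 2, 4 and 5, the other Pfkl probe sets, and the balances and list counts without doubted arrays were chosen after seeing the data. Where 1 array of a group was left, its spread was taken from the other groups. The number of arrays limits the precision.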

Additional observations from a re-analysis of the deposited data

Results flagged for a closer look

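Ldha in GMP-labelled array 2 lay at 12.49, apart from the other arrays of its group, of which the nearest was at 12.22. It was the only such array among 18 sets of member values in groups large enough to be examined, where chance alone gives about 0.9. The change of Pfkp from healthy cells was larger for DN2 than for GMP by 3.83 (limma interaction, adjusted p = 5.16e-07). For Ldhb the same difference was 3.39 (adjusted p = 0.0434).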

How the results depend on the processing

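Of 533 fits of single enzyme differences under alternatives, 484 kept direction and side of the threshold, 21 lost a call, 26 gained one and 2 reversed. The number of enzymes called for the LSK-labelled against the GMP-labelled leukemia was 1, and 0 with the mean of probe sets or these groups alone, 2 with a trended robust fit and 3 with array weights. With array weights it was 5 for each leukemia against its healthy cells (2 for DN2 and 3 for GMP otherwise) and 4 for the interaction (2 otherwise). The healthy cells compared alone gave 7, against 4. The interaction gave 1 without a filter, with the mean of probe sets, without DN2-labelled arrays 1 and 3, and without arrays 2, 4 and 5. Without those 3 arrays, 1 enzyme was called against healthy DN2 cells, Hk1 reversed to 0.14 against the GMP-labelled leukemia, the balance shifts against it were -2.47 (Hk2 to Hk1) and -2.80 (Hk3 to Hk2), the Hk2 to Hk1 shift against healthy DN2 was -0.57, and 2948 genes were called against the GMP-labelled leukemia, against 4628. Leaving out 1 array gave 0 to 1 enzymes for the LSK-labelled against the GMP-labelled leukemia, 1 to 3 for each leukemia against its healthy cells, 2 to 3 between healthy cells and 1 to 2 for the interaction. In the LSK-labelled minus GMP-labelled leukemia Hk2 was -0.12 with array weights and -0.09 to 0.61 with 1 array left out, and Hk3 -1.26 to 0.34. Without LSK-labelled arrays 2 and 3 the balance shifts for the DN2-labelled against the LSK-labelled leukemia were -2.28 (Hk3 to Hk1), -2.53 (Hk2 to Hk1), 0.26 (Hk3 to Hk2, otherwise -2.40) and 1.82 (Ldhb to Ldha), and for the LSK-labelled against the GMP-labelled leukemia -2.71, 0.84, -3.55 and 0.87. With the mean of probe sets Pfkp to Pfkl shifted by 3.20 for DN2 and 0.94 for GMP, and with the third Pfkl probe set by 3.15 and -0.22, by 2.26 for the DN2-labelled against the LSK-labelled leukemia and by -1.54 for the LSK-labelled against the GMP-labelled one. Over all genes, array weights called 5885 against 2695 for DN2, 6053 against 2463 for GMP, 5435 against 1302 between healthy cells and 5241 against 1473 for the interaction. Healthy cells alone gave 5326. The LSK-labelled against the GMP-labelled leukemia gave 1658 with these groups alone, against 3108. Counts without LSK-labelled arrays 2 and 3 are not given, since 1 array of that group was left. The causes were not tested.

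With the replicate number as a block, which the labels do not support as a pairing, the enzyme count was 5 for the DN2-labelled against the LSK-labelled leukemia, against 6, and in the other comparisons stayed at 7, 1, 2, 3, 4 and 2. The call of Hk1 against the LSK-labelled leukemia was the one lost under this replicate block (adjusted p = 0.0949). No detection calls were used here, so background is known only through the median of all values.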
